A study of Homo sapiens with 12 samples.

Results

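The 10 genes described here mark the epithelial and the mesenchymal state of a carcinoma cell. They were chosen by name: the epithelial genes CDH1, EPCAM and ESRP1, the mesenchymal structural genes CDH2, VIM and FN1, and the transcription factor genes ZEB1, ZEB2, SNAI2 and TWIST1. All 10 were found by Ensembl ID among the 60669 IDs of a table of raw read counts. The table covers 6 established human ovarian cancer cell lines and 12 RNA-seq libraries of polyA RNA. Each line was grown with 8 µM quinacrine (QC), an antimalarial drug, for 6 h or with vehicle (buffer), which gave a single library per line and treatment. HeyA8, SKOV3 and OV2008 are the sensitive lines. Their resistant partners are HeyA8-MDR, labelled carboplatin-resistant in the study's methods, SKOV3-TR, which is taxol-resistant, and C13, which is cisplatin-resistant and derived from OV2008 (sample labels HeyA8_MDR, SKOV3_TR and OV2008_C13). A sensitive line and its resistant partner are called a family here, so there were 3 families of 4 libraries. No line had a replicate of its own. Lines served as replicates of a group, and p-values speak of the spread between these 6 lines alone.

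Epithelial cells hold to each other through E-cadherin, the product of CDH1, and mesenchymal cells lack these junctions and move as single cells. In the epithelial-mesenchymal transition, transcription factors of the ZEB, SNAIL and TWIST families repress epithelial genes, often by binding E-box motifs in their promoters, while N-cadherin (CDH2), vimentin (VIM) and fibronectin (FN1) come up. The microRNAs of the miR-200 family hold ZEB1 and ZEB2 down in epithelial cells, and the ZEB proteins in turn repress the miR-200 genes. Ovarian carcinoma lines are known to span both states.

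The mature miR-200 sequences are shown first because their seeds split the family into 2 groups that both pair with the ZEB mRNAs. The sequences are those of RefSeq (GRCh38.p14), with the seed, bases 2 to 8, in capitals. The first 3 share the seed AAUACUG and the last 2 the seed AACACUG.
hsa-miR-200b-3p: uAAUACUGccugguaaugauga
hsa-miR-200c-3p: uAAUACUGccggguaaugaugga
hsa-miR-429: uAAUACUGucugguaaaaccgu
hsa-miR-200a-3p: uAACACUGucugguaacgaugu
hsa-miR-141-3p: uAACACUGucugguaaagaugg
Mature microRNAs were not measured in these libraries. MIR200CHG, the host transcript of miR-200c and miR-141 on chromosome 12, was counted.

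The 3′ UTRs of ZEB1 (2540 bases) and ZEB2 (5370 bases) each held 9 matches to the 2 seeds, 6 CAGTATT and 3 CAGTGTT in ZEB1 and 5 and 4 in ZEB2. Of 18642 3′ UTRs scanned, 28.7% held at least 1 match and 0.0429% held at least 9. ESRP1 and FN1 had 2 matches and SNAI2 had 1, while CDH1, EPCAM, CDH2, VIM and TWIST1 had 0. A match is a run of letters and not a measured site. The following 28-base windows (GRCh37, GENCODE annotation) show 2 sites of each gene with the seed match in capitals.
ZEB1 site at chr10:31816541-31816568, plus strand: ctggcattgttttatcttatCAGTATTa
ZEB1 site at chr10:31816954-31816981, plus strand: gacagcaaaatcatcagaatCAGTGTTt
ZEB2 site at chr2:145146619-145146646, minus strand: gtgcccgcactaccatacatCAGTATTt
ZEB2 site at chr2:145146803-145146830, minus strand: cattatgcaaaaattttgtaCAGTGTTa

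Promoters were searched for the E-box CACCTG on either strand, which reads CAGGTG on the other, in windows from 250 bases before to 50 bases after a gene's start (RefSeq, GRCh38.p14). Of all 35116 promoters 20.6% held it. Of 30 promoters that belong to 20 of the other epithelial genes described below, 16 (53.3%) held it, and of 52 promoters of 23 mesenchymal genes, 8 (15.4%) did. Among the members, promoters of CDH2, VIM, FN1, ZEB1 and ZEB2 were searched, 12 in all, and 2 held it, both of ZEB1. The windows of MIR200CHG and of the tight junction gene CLDN7 and the polarity gene CRB3 are shown with each E-box in capitals, the first as the miR-200c and miR-141 host gene and the others because they hold the most motifs of the windows shown (5 each, against 1 in MIR200CHG). A second CLDN7 promoter, at chr17:7263164-7263463, held 0 motifs. CLDN7 and CRB3 were higher in the OV2008 than in the HeyA8 family (adjusted p = 0.0355 and 0.0314, edgeR). Both had few or 0 counts in the HeyA8 family, so these p-values are a description only. Neither gene passed between the OV2008 and SKOV3 families (adjusted p over 0.05, edgeR). Whether the motifs bear on these levels was not tested.
MIR200CHG at chr12:6962995-6963294, plus strand: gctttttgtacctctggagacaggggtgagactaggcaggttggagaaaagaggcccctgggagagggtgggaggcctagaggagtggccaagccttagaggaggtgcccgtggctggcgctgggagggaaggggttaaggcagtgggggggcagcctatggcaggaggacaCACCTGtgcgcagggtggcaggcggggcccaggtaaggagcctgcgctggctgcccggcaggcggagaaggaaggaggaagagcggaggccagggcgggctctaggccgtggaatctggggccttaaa
CLDN7 at chr17:7262429-7262728, minus strand: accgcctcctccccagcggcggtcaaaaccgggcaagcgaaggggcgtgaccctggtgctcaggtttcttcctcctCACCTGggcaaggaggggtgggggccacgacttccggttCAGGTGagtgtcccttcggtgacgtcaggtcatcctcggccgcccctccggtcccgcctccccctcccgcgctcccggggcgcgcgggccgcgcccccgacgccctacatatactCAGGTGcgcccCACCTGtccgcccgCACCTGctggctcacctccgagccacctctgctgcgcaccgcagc
CRB3 at chr19:6464021-6464320, plus strand: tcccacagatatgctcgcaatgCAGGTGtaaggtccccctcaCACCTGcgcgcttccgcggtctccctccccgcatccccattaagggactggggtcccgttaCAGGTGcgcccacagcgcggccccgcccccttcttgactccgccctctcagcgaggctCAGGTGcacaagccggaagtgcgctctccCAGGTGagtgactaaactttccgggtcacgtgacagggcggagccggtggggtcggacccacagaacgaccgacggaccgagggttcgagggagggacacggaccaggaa

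Library totals of gene counts ran from 17782556 to 30585059 (median 22289428). Levels are given in CPM, counts scaled to a library total of 1000000 after TMM adjustment, and a count of 0 allows up to between 0.0884 and 0.178 CPM (3 counts, counting error only). In each library 64.3% to 68.6% of the values from 1 to 20 were even numbers, so that 1 fragment can have given 2 counts at low levels. Markers were checked in each family. The ovarian lineage gene PAX8 lay between 234 and 478 CPM in the HeyA8 and SKOV3 families and between 7.55 and 24.7 CPM in the OV2008 family, where the 4 squamous markers TP63, KRT5, KRT14 and DSG3 summed to between 2796 and 11743 CPM. That sum was at most 0.266 CPM in the HeyA8 family and 49.4 CPM in the SKOV3 family. The 4 leukocyte markers summed to at most 0.617 CPM and the 5 fibroblast markers to at most 40.1 CPM, nearly all COL1A1. Of the other ovarian markers KRT7 was also lowest in the OV2008 family. WT1 and MUC16 lay there within the range of the other families, and EMX2 was at or near 0 counts in every library. The labelled ovarian origin of OV2008 and C13 is thus not borne out by PAX8, KRT7 and the squamous markers, and WT1 and MUC16 do not set this family apart. Differences between the OV2008 family and the others cannot be told apart from differences in lineage or line identity. CDH5, an endothelial cadherin, lay between 89.2 and 176 CPM in the HeyA8 family and was lower in all 8 other libraries. The endothelial markers VWF and TEK did not set this family apart. VWF lay there between 0.467 and 5.09 CPM, against 5.27 CPM in SKOV3-TR with vehicle, and TEK was at most at 0.708 CPM in every library. A further listed marker, PECAM1, was not found by symbol.

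The QC library of HeyA8 stood apart. Between the vehicle libraries of HeyA8 and HeyA8-MDR, 108 genes were at least 8-fold higher in HeyA8-MDR and 150 at least 8-fold lower (50 counts or more in the higher library). On the log2 scale the HeyA8 QC library had moved towards HeyA8-MDR by a median of 66.4% of this distance for the higher and 23.4% for the lower genes. The same medians were 12.3% and 6.9% for the OV2008 QC library towards C13 and 0.5% and 2.7% for the SKOV3 QC library towards SKOV3-TR. Among resistant lines the HeyA8-MDR QC library lay 13.5% and 15.6% of the way to HeyA8, SKOV3-TR at most 3.7% and C13 at most 2.1% of the way to their partners. QC values of HeyA8, and to a lesser degree of HeyA8-MDR, carry this limit, and comparisons that hold them were also run without each line.

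The levels of the state genes differed by family. CDH1, EPCAM and ESRP1 were highest in OV2008 and C13, VIM and FN1 were highest in HeyA8 and HeyA8-MDR, and SKOV3 and SKOV3-TR lay between them for 4 of these 5 genes. Between families in the 6 vehicle libraries, 8 of the 10 members had an adjusted p under 0.05, and 15.2% of all 18297 genes tested did (2784 genes, edgeR's quasi-likelihood test, 2 degrees of freedom for family, Benjamini-Hochberg adjustment). All 10 members passed the expression filter, but only CDH2, FN1, SNAI2 and TWIST1 had at least 10 counts in every library, and the other 6 passed through the families in which they were high. Such a gene had to differ, so the count of 8 is a description of these genes. The same holds for the p-values of these 6 genes between families. Fitted log2 differences and SEs of these 6 genes depend on the small counts in the low family.

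CDH1, which encodes E-cadherin and lies on chromosome 16, had 308 CPM in OV2008 and 410 CPM in C13 with vehicle, 41.8 CPM in SKOV3, 10.6 CPM in SKOV3-TR, 0.221 CPM (5 counts) in HeyA8 and 0 counts in HeyA8-MDR. With QC the levels were 346, 522, 50.8, 3.65 and 0.0730 CPM in OV2008, C13, SKOV3, SKOV3-TR and HeyA8, and HeyA8-MDR was again at 0 counts. The 3 families did not overlap. Of all 18720 genes 41.7%, 46.3% and 44.8% did not overlap between OV2008 and HeyA8, OV2008 and SKOV3, and SKOV3 and HeyA8, and of the 10 members 9, 8 and 6 did not. The lowest OV2008 family library was 6.06-fold above the highest of the SKOV3 family, and the lowest of the SKOV3 family was 16.5-fold above the highest of the HeyA8 family. CDH1 differed between families (adjusted p = 0.00974, edgeR) and also in each pair of families, by 4.14 (SE 0.81, adjusted p = 0.0369) on the log2 scale between OV2008 and SKOV3 and by 7.70 (SE 1.04, adjusted p = 0.0199) between SKOV3 and HeyA8 in edgeR. The values against HeyA8 rest on its 0 to 5 counts per library, and these p-values of CDH1 are a description only.

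EPCAM, a cell adhesion protein of epithelia encoded on chromosome 2, had 219 CPM in OV2008, 204 CPM in C13, 52.3 CPM in SKOV3, 3.06 CPM in SKOV3-TR, 2.92 CPM in HeyA8 and 1 count in HeyA8-MDR with vehicle. The QC libraries held 245, 182, 52.7, 4.07 and 1.86 CPM in the same order, and HeyA8-MDR had 0 counts. SKOV3-TR and HeyA8 were therefore next to each other although their families do not overlap, by 1.05-fold. EPCAM differed between families (adjusted p = 0.0295, edgeR). Of the pairs OV2008 against HeyA8 passed (log2 8.63, SE 1.48, adjusted p = 0.0298, edgeR). With 1 count in HeyA8-MDR, these p-values are a description only.

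ESRP1, an epithelial splicing regulator encoded on chromosome 8, was high in OV2008 and C13 alone. Their vehicle libraries had 126 and 140 CPM and their QC libraries 156 and 166 CPM. The other 8 libraries lay between 0.106 and 3.13 CPM, 40.2-fold or more below, and the HeyA8 and SKOV3 families overlapped. ESRP1 was higher in the OV2008 family than in the HeyA8 family (log2 6.75, SE 0.93, adjusted p = 0.0183) and than in the SKOV3 family (log2 8.06, SE 0.99, adjusted p = 0.0181). ESRP1 had few counts outside the OV2008 family, so these p-values are a description only. SKOV3 had 30 ESRP1 counts with vehicle and 69 with QC, a low level beside its CDH1 and EPCAM.

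**Figure D1:**
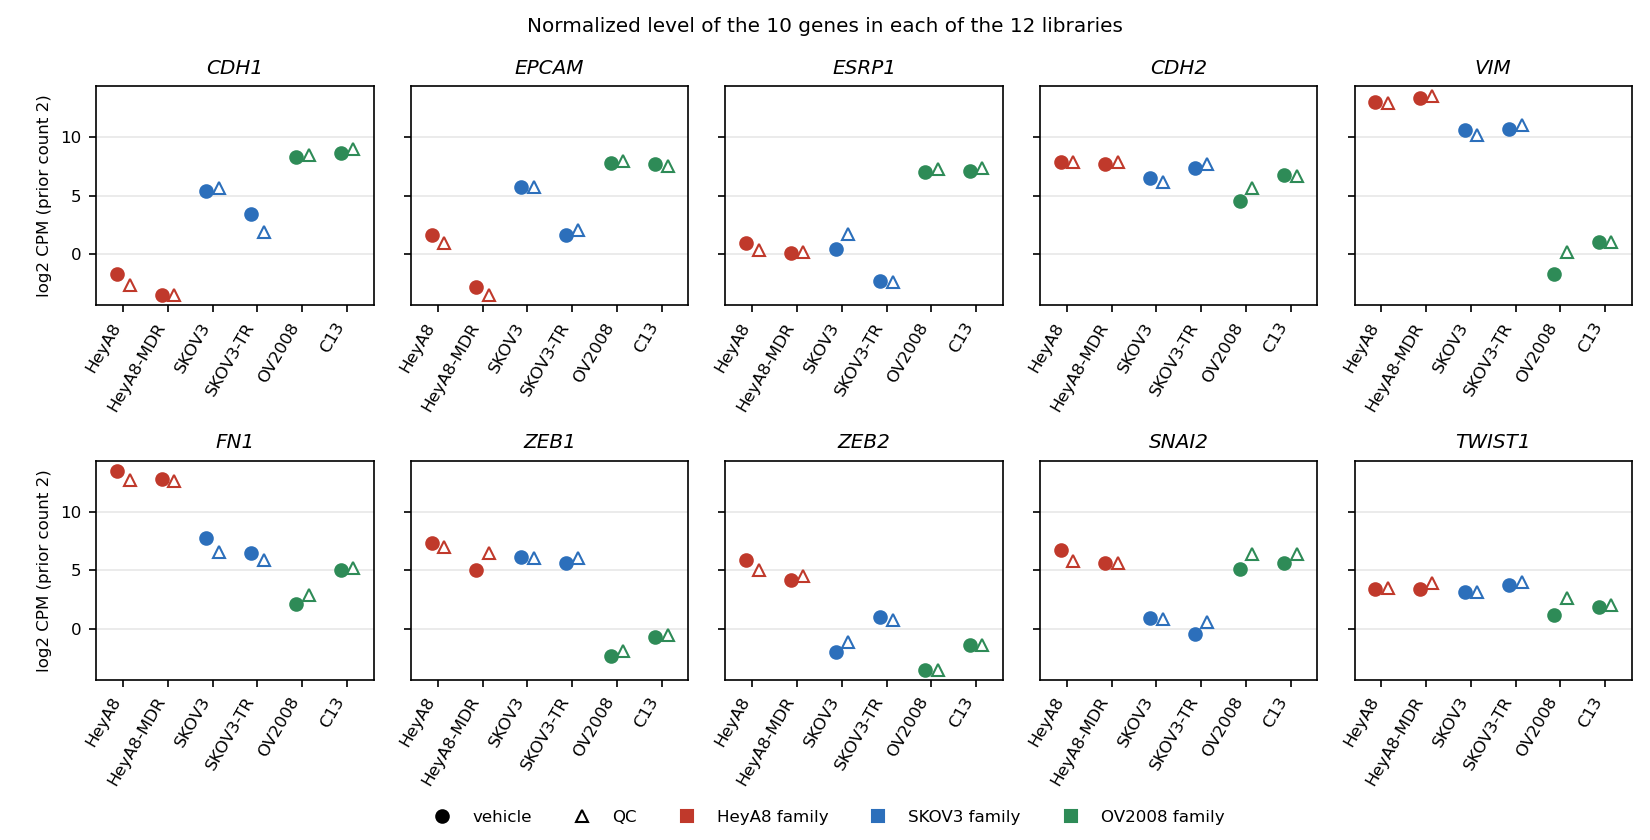
Normalized level of each of the 10 genes (log2 CPM with a prior count of 2, vertical axis) in each cell line (horizontal axis), with vehicle as filled circles, QC as open triangles and families in colours; each symbol is 1 library. ESRP1 was high in the OV2008 family alone, ZEB1 was low there alone, and SNAI2 was low in the SKOV3 family alone.

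VIM, the intermediate filament protein vimentin, was high in HeyA8 and had few counts in OV2008. The vehicle libraries had 8489 CPM in HeyA8, 10354 CPM in HeyA8-MDR, 1571 CPM in SKOV3, 1678 CPM in SKOV3-TR, 0.224 CPM (4 counts) in OV2008 and 1.96 CPM (59 counts) in C13. With QC they were 7907, 11911, 1185, 2158, 1.01 and 1.92 CPM. The lowest HeyA8 family library was 3.66-fold above the highest SKOV3 family library, and the lowest SKOV3 family library was 604-fold above the highest of the OV2008 family. VIM had the smallest adjusted p of the members for family (0.00713, edgeR), a description only given its few OV2008 counts. The difference between SKOV3 and HeyA8 families, a log2 difference of -2.51 (SE 0.66), did not pass (adjusted p = 0.0767, edgeR).

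FN1, which encodes the matrix protein fibronectin, followed the same order over a wide range. It had 11828 CPM in HeyA8, 7250 CPM in HeyA8-MDR, 216 CPM in SKOV3, 87.2 CPM in SKOV3-TR, 4.197 CPM in OV2008 and 32.3 CPM in C13 with vehicle, and 6703, 6329, 96.8, 59.2, 7.18 and 36.1 CPM with QC. The HeyA8 family lay 29.3-fold or more above the SKOV3 family, and the SKOV3 family 1.64-fold or more above the OV2008 family. The OV2008 and HeyA8 families differed by -9.13 (SE 1.35, adjusted p = 0.0213) and the SKOV3 and HeyA8 families by -5.97 (SE 1.15, adjusted p = 0.0412) on the log2 scale in edgeR.

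CDH2, which encodes N-cadherin, was present in every library and separated the families least of the structural genes. It had 232 CPM in HeyA8, 214 CPM in HeyA8-MDR, 88.1 CPM in SKOV3, 166 CPM in SKOV3-TR, 23.3 CPM in OV2008 and 106 CPM in C13 with vehicle, and 232, 239, 73.0, 214, 50.1 and 102 CPM with QC. The SKOV3 family overlapped both other families. CDH2 did not pass for family (adjusted p = 0.100, edgeR), and its log2 difference between OV2008 and HeyA8 families was -2.18 (SE 0.60, adjusted p = 0.0886, edgeR). C13 thus had N-cadherin mRNA above SKOV3 beside the highest E-cadherin mRNA of the 6 lines.

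The 2 cadherins were compared per kilobase of exon (CPM per kb). CDH1 exceeded CDH2 18.6-fold in OV2008 and 5.45-fold in C13 with vehicle and 9.75-fold and 7.20-fold with QC. In SKOV3 the 2 were close, with CDH2 1.49-fold higher in vehicle and 1.02-fold higher in QC. In SKOV3-TR CDH2 was 11.1-fold higher in vehicle and 41.6-fold higher in QC. In HeyA8 CDH2 was 741-fold higher in the vehicle library, where CDH1 had 5 counts. Across genes, the HeyA8 vehicle library held 1640 CPM per kb of VIM, 687 of FN1 and 27.0 of CDH2, and the OV2008 vehicle library 90.0 CPM per kb of EPCAM, 50.7 of CDH1, 25.8 of ESRP1 and 10.6 of SNAI2.

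ZEB1 and ZEB2 encode zinc finger repressors of CDH1. ZEB1, on chromosome 10, had 158 CPM in HeyA8, 31.4 CPM in HeyA8-MDR, 68.3 CPM in SKOV3 and 48.8 CPM in SKOV3-TR with vehicle, and 126, 90.7, 65.6 and 65.0 CPM with QC. The OV2008 family held 2, 4, 16 and 16 counts in OV2008 vehicle, OV2008 QC, C13 vehicle and C13 QC, at most 0.602 CPM. The HeyA8 and SKOV3 families overlapped, and both lay above the OV2008 family, 52.2-fold and 81.0-fold or more. ZEB1 was lower in the OV2008 family, with log2 differences of -7.77 (SE 1.14, adjusted p = 0.0212) from the HeyA8 family and -7.26 (SE 1.10, adjusted p = 0.0246) from the SKOV3 family in edgeR. With so few ZEB1 counts in the OV2008 family, these p-values are a description only. SKOV3 held ZEB1 and CDH1 in the same library.

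ZEB2, on chromosome 2, was at a clear level in the HeyA8 family alone. It had 58.0 CPM in HeyA8 and 18.2 CPM in HeyA8-MDR with vehicle and 32.7 and 22.2 CPM with QC. SKOV3 had 4 counts with vehicle and 8 with QC, SKOV3-TR 66 and 30 counts, OV2008 0 and 0 and C13 9 and 8. The lowest HeyA8 family library lay 9.37-fold above the highest SKOV3 family library. ZEB2 had few counts outside the HeyA8 family, so its p-values are a description only. ZEB2 differed between families (adjusted p = 0.0405, edgeR) and between the OV2008 and HeyA8 families (log2 -8.62, SE 1.82, adjusted p = 0.0495, edgeR).

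SNAI2, which encodes the repressor SLUG and lies on chromosome 8, did not follow the other mesenchymal genes. It was high in the HeyA8 family (108 and 49.4 CPM in HeyA8 and HeyA8-MDR with vehicle, 54.6 and 49.7 CPM with QC) and also in the OV2008 family (34.7 and 47.9 CPM in OV2008 and C13 with vehicle, 83.9 and 83.8 CPM with QC). The SKOV3 family lay between 0.648 and 1.75 CPM, 19.8-fold or more below the OV2008 family. The OV2008 and SKOV3 families differed by 5.27 (SE 0.66, adjusted p = 0.0183), and the OV2008 and HeyA8 families by -0.79 (SE 0.55, adjusted p = 0.413, edgeR). The sign of the last difference was the opposite in the QC libraries (0.69, adjusted p = 0.219, edgeR).

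TWIST1, a basic helix-loop-helix factor gene on chromosome 7, was low everywhere. It lay between 10.1 and 14.7 CPM in the HeyA8 family, between 8.43 and 15.97 CPM in the SKOV3 family and between 2.13 and 6.12 CPM in the OV2008 family. It did not pass for family (adjusted p = 0.101, edgeR), although the OV2008 family did not overlap the other families.

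**Figure D2:**
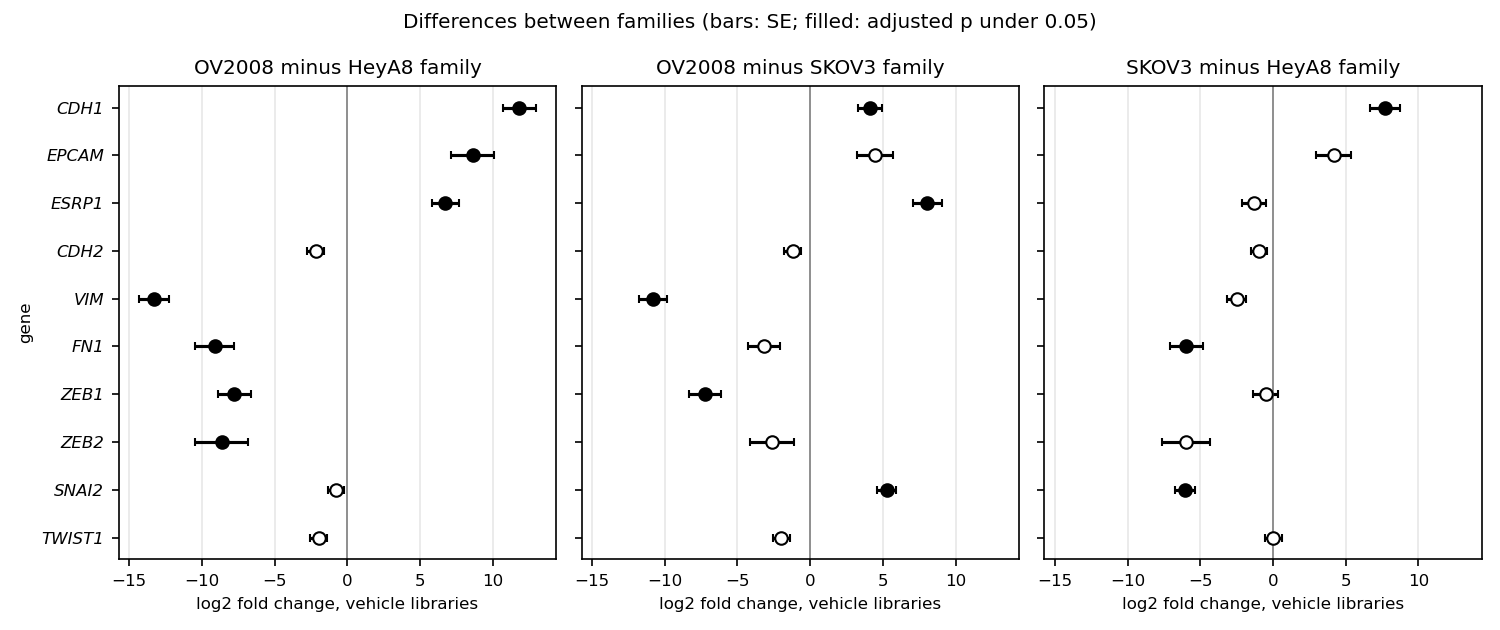
Log2 fold change between families in the vehicle libraries (horizontal axis) for each of the 10 genes (vertical axis), with bars for the SE and filled points where the adjusted p was under 0.05 (edgeR). CDH1, EPCAM and ESRP1 lie right of 0 and VIM, FN1, ZEB1 and ZEB2 left of 0 in OV2008 minus HeyA8, and values of genes with few counts in a family depend on the prior count of the fit.

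Of the pairs of families, 7 members passed between OV2008 and HeyA8 (3 higher and 4 lower in OV2008), 5 between OV2008 and SKOV3 (3 higher, 2 lower) and 3 between SKOV3 and HeyA8 (1 higher, 2 lower). Of all genes 6.94%, 10.2% and 7.21% passed in these pairs. When each of the 6 lines was left out in turn, CDH1, VIM and SNAI2 kept an adjusted p under 0.05 for family in all 6 fits. EPCAM lost it without HeyA8 (0.0522), HeyA8-MDR (0.0692) or C13 (0.0554). ESRP1 lost it without OV2008 (0.0518) or C13 (0.0692), ZEB1 without OV2008 (0.0817) or C13 (0.0669), FN1 without HeyA8 (0.0506), and ZEB2 without HeyA8 (0.0737), OV2008 (0.139) or C13 (0.119). These are adjusted p-values of edgeR, and a family left with 1 line was taken to vary like the others. Of these genes only SNAI2 and FN1 had at least 10 counts in every library. For the other genes named, keeping or losing a low p is a description only. In the 6 QC libraries the same 8 members passed for family, beside 21.4% of all genes (3915 of 18297). In the pairs 7 members passed between OV2008 and HeyA8, 4 between OV2008 and SKOV3 and 6 between SKOV3 and HeyA8.

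The other epithelial genes followed the members across families. The list held 34 genes of junctions, polarity, keratins and epithelial transcription factors, chosen with earlier results of these data known, and all 34 were tested. Between OV2008 and HeyA8 23 of 34 were higher in OV2008 and 0 lower (3.06% of all genes were called higher), with a median log2 difference of 7.42 against -0.03 over all genes. Of the 34 genes 8 had at most 3 counts in every HeyA8 family library, 5 of them 0, and such genes passed the filter through the families where they are high, so the counts and medians of this list are a description. Between SKOV3 and HeyA8 17 were higher in SKOV3 and 0 lower (3.85% of all genes were called higher), with a median of 4.41 against 0.03. Between OV2008 and SKOV3 9 were higher and 1 lower in OV2008 (4.6% and 5.59% of all genes), with a median of 2.22 against -0.10. The lower gene was the mucin gene MUC1, named after its values were seen.

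The 4 genes with the smallest p for family were KRT19, ST14, ELF3 and CDH3. Each was picked by this p and had few counts in the HeyA8 family, so the p-values given here are a description only. KRT19, a keratin of simple epithelia, lay between 834 and 2008 CPM in the OV2008 family, between 51.3 and 169 CPM in the SKOV3 family and at most at 0.354 CPM in the HeyA8 family (adjusted p = 0.00462, edgeR). ST14, the membrane protease matriptase, lay between 87.9 and 258 CPM in the OV2008 family and at most at 1.21 CPM in the other 8 libraries (adjusted p = 0.00462, edgeR). ELF3, an epithelial ETS factor, differed in another way: it lay between 50.5 and 123 CPM in both the OV2008 and SKOV3 families and at most at 0.104 CPM in the HeyA8 family. CDH3, which encodes P-cadherin, lay between 329 and 594 CPM in the OV2008 family and at most at 6.57 CPM elsewhere.

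Some epithelial genes were at or near 0 counts outside OV2008 and C13. MIR200CHG had 46, 102, 45 and 51 counts in OV2008 vehicle, OV2008 QC, C13 vehicle and C13 QC and 0 counts in the other 8 libraries. This is a level of 1.496 to 4.49 CPM, at least 8.43-fold higher than in the HeyA8 family and at least 9.44-fold higher than in the SKOV3 family (against 3 counts per library), but its adjusted p was 0.0849 and 0.0645 in these pairs in edgeR. GRHL2, a grainyhead factor of epithelia, lay between 88.2 and 103 CPM in the OV2008 family, at 0 counts in the HeyA8 family and at most at 0.0589 CPM in the SKOV3 family. Both genes were singled out after their values were seen.

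The other mesenchymal genes were less uniform. Of 34 genes 30 were tested, since THY1, POSTN, COL1A2 and COL3A1 did not pass the filter. Between OV2008 and HeyA8 9 of 30 were lower in OV2008 and 0 higher (3.89% of all genes were called lower), with a median of -1.91 on the log2 scale. Between OV2008 and SKOV3 8 were lower and 1 higher (5.59% and 4.6% of all genes), with a median of -1.15 against -0.10 over all genes. Between SKOV3 and HeyA8 5 were lower in SKOV3 and 1 higher (3.36% and 3.85% of all genes), with a median of -0.24. TGFBR2, the type II receptor for TGF-beta, lay between 319 and 714 CPM in the HeyA8 family and between 98.1 and 156 CPM in the SKOV3 family and had 0 counts in all 4 libraries of the OV2008 family, at least 585-fold lower than in the SKOV3 family (against 3 counts per library). ITGA5, a fibronectin receptor subunit, fell in the same order, with 359 to 448 CPM, 52.8 to 74.4 CPM and 10.5 to 30.7 CPM in the HeyA8, SKOV3 and OV2008 families (adjusted p = 0.0084, edgeR). TGFBR2 and ITGA5 were picked by their small p for family, so this p is a description only.

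The remaining 2 of the 4 mesenchymal genes with the smallest p crossed this order. MMP14, a membrane-bound matrix protease, lay between 1296 and 1851 CPM in the HeyA8 family and between 109 and 180 CPM in the OV2008 family, but at most at 2.54 CPM in the SKOV3 family. S100A4, a calcium-binding protein, lay between 388 and 737 CPM in the SKOV3 family and at most at 4.44 CPM in the other 8 libraries. MMP14 is the gene called higher in OV2008 than in SKOV3, and S100A4 the gene called higher in SKOV3 than in HeyA8.

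**Figure D3:**
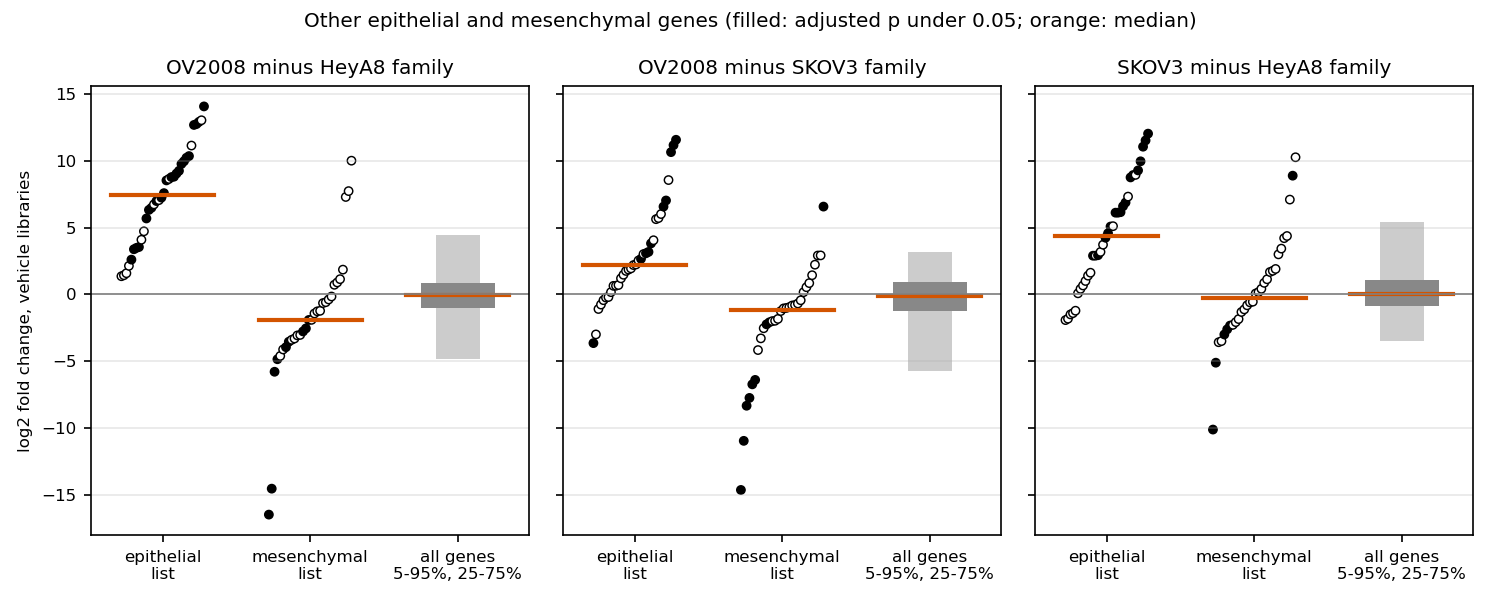
Log2 fold change between families in the vehicle libraries (vertical axis) for the 34 other epithelial genes and the 30 tested other mesenchymal genes, each point 1 gene, filled where the adjusted p was under 0.05 (edgeR), beside bars for the middle 90% and 50% of all 18297 genes; orange lines are medians. The epithelial medians lie at 7.42, 2.22 and 4.41 and the mesenchymal medians at -1.91, -1.15 and -0.24.

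The genes most like CDH1 over the 12 libraries, among 16687 genes with a symbol, were NOS1 (Pearson r = 0.997 of log2 CPM), KRT19 (0.986), MARVELD2 (0.985), DENND2D (0.984) and MST1R (0.984). NOS1, a nitric oxide synthase, had 75.9, 43.9, 113 and 81.1 CPM in the OV2008 family (OV2008 vehicle, OV2008 QC, C13 vehicle, C13 QC), 14.6, 13.9, 4.36 and 1.69 CPM in the SKOV3 family (SKOV3 vehicle and QC, then SKOV3-TR) and at most 0.0885 CPM in the HeyA8 family. It thus shared with CDH1 the lower level in SKOV3-TR. The genes most like ZEB1 were STC1 (0.990), ECI2 (0.988), LRCH2 (0.987), SH3BGRL (0.986) and MOXD1 (0.986), all at most at 0.452 CPM in the OV2008 family. STC1, which encodes the secreted glycoprotein stanniocalcin, had 349 CPM in HeyA8 with vehicle and 407 CPM with QC. The 12 libraries hold 3 families of 4, so these values describe family differences first, and no test was made.

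Resistant lines were compared with their sensitive partners in the vehicle libraries, with the family as a block. None of the 10 members had an adjusted p under 0.05, and 0 of 18297 genes (0%) did in edgeR's quasi-likelihood test. DESeq2 called 48 genes and 0 members. At an unadjusted p under 0.05 there were 685 genes (3.74%) and 1 member, EPCAM, with a mean log2 difference of -2.85 (SE 1.07, unadjusted p = 0.0377, adjusted p = 0.996, edgeR). With vehicle EPCAM was lower and VIM and TWIST1 higher in the resistant line of all 3 families, and the other 7 members had no common direction. The share of all genes with a common direction was not determined, so this is a description only. TWIST1 was 1.05-fold higher in HeyA8-MDR (log2 interval -0.20 to 0.35) and VIM 1.07-fold higher in SKOV3-TR. With QC, TWIST1 was lower in C13 than in OV2008 (log2 -0.635). The differences are given family by family as single libraries with counting intervals.

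In the SKOV3 family the 3 epithelial members were lower in the resistant line. This did not extend to the other epithelial genes: of the 31 with more than 3 counts in either vehicle library 15 were higher and 16 lower in SKOV3-TR, with a median log2 difference of -0.11. SKOV3-TR had 3.94-fold less CDH1 (log2 -1.97, 95% counting interval -2.15 to -1.80), 17.1-fold less EPCAM (104 against 1253 counts) and 10.6-fold less ESRP1 (4 against 30 counts) than SKOV3 with vehicle. CDH2 was 1.88-fold and TWIST1 1.56-fold higher in SKOV3-TR, and ZEB2 had 66 against 4 counts, 11.6-fold higher (log2 interval 2.12 to 5.46). FN1 was 2.48-fold lower and SNAI2 2.71-fold lower, and VIM was 1.07-fold higher. In the QC libraries CDH1, EPCAM and ESRP1 were again lower in SKOV3-TR, with log2 differences of -3.77, -3.67 and -4.07.

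In the HeyA8 family the resistant line had less of 3 of the 4 transcription factors. ZEB1 was 5.04-fold lower (606 against 3577 counts), ZEB2 3.19-fold lower and SNAI2 2.19-fold lower in HeyA8-MDR with vehicle. TWIST1 was 1.05-fold higher, CDH2 1.08-fold lower and VIM 1.22-fold higher. EPCAM had 1 count in HeyA8-MDR against 66 in HeyA8 (log2 interval -11.1 to -3.29). In the QC libraries the log2 differences of ZEB1, ZEB2 and SNAI2 were smaller, -0.47, -0.56 and -0.14, and the HeyA8 QC library is the one that lay towards HeyA8-MDR.

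In the OV2008 family the structural mesenchymal members were higher in the resistant line and the epithelial members were close. The first did not extend to the other mesenchymal genes. Of the 26 with more than 3 counts in either vehicle library 14 were higher and 12 lower in C13, with a median log2 difference of 0.01. C13 had 4.55-fold more CDH2 (3192 against 417 counts), 7.70-fold more FN1 (972 against 75 counts) and 8.77-fold more VIM (59 against 4 counts) than OV2008 with vehicle. CDH1 was 1.33-fold higher, ESRP1 1.12-fold higher and EPCAM 1.07-fold lower in C13. In the QC libraries the log2 differences of CDH2, FN1 and VIM were 1.03, 2.32 and 0.87, against 2.18, 2.92 and 2.73 with vehicle. VIM and ZEB1 stayed far below the other families in C13 too.

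**Figure D4:**
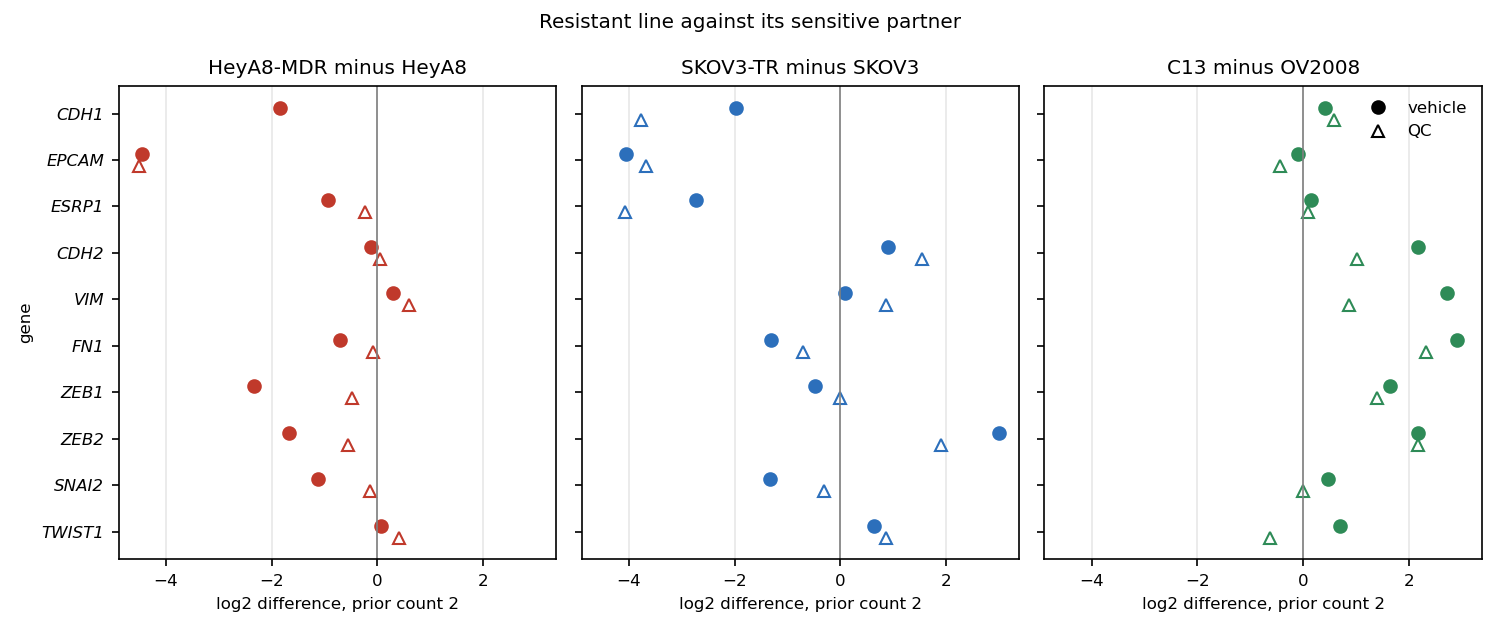
Log2 difference between each resistant line and its sensitive partner (horizontal axis, prior count 2) for each of the 10 genes (vertical axis), with vehicle as filled circles and QC as open triangles; each symbol compares 2 libraries, and pairs with at most 3 counts in both are left out. CDH1, EPCAM and ESRP1 lie left of 0 in the SKOV3 family, and CDH2, VIM and FN1 lie right of 0 in the OV2008 family.

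Of the other epithelial genes 0 of 34 passed for resistance, and 2 had an unadjusted p under 0.05 (of all genes 1.97% were higher and 1.78% lower at it), KRT19 lower (log2 -1.23, SE 0.31) and CDH3 higher (log2 1.54, SE 0.46) in the resistant lines. KRT19 was lower in SKOV3-TR and C13, with 169 against 62.6 CPM in SKOV3 and SKOV3-TR and 2008 against 1089 CPM in OV2008 and C13, and had 8 against 2 counts in HeyA8 and HeyA8-MDR. Of the mesenchymal genes 0 of 30 passed and 2 had an unadjusted p under 0.05, COL5A1 lower (log2 -4.58, SE 0.997) and AXL higher (log2 1.31, SE 0.39). COL5A1, a fibrillar collagen chain, had 29.5 CPM in HeyA8 against 0.208 CPM in HeyA8-MDR, 81.5 against 13.4 CPM in SKOV3 and SKOV3-TR and 2.01 against 0.0665 CPM in OV2008 and C13. AXL, a receptor tyrosine kinase, had 1462 against 1808 CPM, 119 against 381 CPM and 57.7 against 216 CPM in the same pairs. The adjusted p of these 4 genes was 0.996 in edgeR.

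QC was compared with vehicle over all 6 lines, with the cell line as a block. None of the 10 members had an adjusted p under 0.05, and 0 of 18720 genes (0%) did in edgeR. DESeq2 called 522 genes and 0 members. At an unadjusted p under 0.05 there were 2840 genes (15.2%) and 0 members. The mean log2 changes of the members ran from -0.34 (SE 0.21) for FN1 to 0.41 (SE 0.20) for TWIST1. TWIST1 was higher with QC in 6 of 6 lines, by 0.05 to 1.49 on the log2 scale (adjusted p = 0.368, edgeR), and 8.86% of all genes had the same direction in all 6 lines (4.13% higher and 4.73% lower with QC). FN1 was lower in the 4 lines of the HeyA8 and SKOV3 families and higher in OV2008 and C13.

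The 3 sensitive and the 3 resistant lines were also given a QC effect each, in a fit of all 12 libraries that shared its estimate of the spread. In either group and for the difference between them 0 genes passed, with 1234 (6.59%), 1128 (6.03%) and 217 (1.16%) genes at an unadjusted p under 0.05. DESeq2 called 32, 0 and 1 genes and 0 members in these comparisons. ZEB1 was the 1 member at that unadjusted threshold. Its mean log2 change was 0.83 (SE 0.26, unadjusted p = 0.00834, adjusted p = 0.816) in resistant lines and -0.15 (SE 0.27) in sensitive lines, and the difference was 0.99 (SE 0.38, unadjusted p = 0.0233, adjusted p = 0.9998, edgeR). The change was largest of the 3 resistant lines in HeyA8-MDR, where ZEB1 had 606 counts with vehicle and 1532 with QC, 2.88-fold higher (log2 interval 1.39 to 1.67). In SKOV3-TR it was 1.33-fold higher and in C13 it had 16 counts in both libraries. Without HeyA8-MDR the change in resistant lines was 0.32 (SE 0.26, unadjusted p = 0.240), and without HeyA8 the difference was 0.82 (SE 0.48, unadjusted p = 0.112). The ZEB1 level of HeyA8-MDR with QC, 90.7 CPM, in the library that lay 13.5% and 15.6% of the way to HeyA8, was between those of the HeyA8-MDR and HeyA8 vehicle libraries.

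Single lines differed more than the means. In OV2008, 9 of 10 members were higher in the QC library, with ZEB2 at 0 counts in both, and the median log2 change of the 7 mesenchymal members was 1.10 against 0.00 over all genes. SNAI2 went from 620 to 1906 counts (2.42-fold higher), CDH2 from 417 to 1138 (2.15-fold), TWIST1 from 38 to 139 (2.88-fold), FN1 from 75 to 163 (1.71-fold) and VIM from 4 to 23 (4.53-fold, log2 interval 0.63 to 4.17). CDH2, VIM and FN1 in the OV2008 QC library lay 50.4%, 67.1% and 26.1% of the way to the C13 vehicle library on the log2 scale, beside the median of 12.3% for genes at least 8-fold higher in C13. CDH2 and FN1 differed less than 8-fold between these partners (4.55-fold and 7.70-fold), so for them that median is not of like genes. ZEB1 lay at 24.7% (2 and 4 counts in OV2008) and ZEB2 at 0% (0 counts), and the value of VIM rests on 4 vehicle counts. CDH1, EPCAM and ESRP1 were higher as well, by 1.12-fold, 1.12-fold and 1.24-fold.

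In HeyA8, 8 of 10 members were lower in the QC library, with a median log2 change of -0.609 over the members against 0.00 over all genes. The 8 include CDH1 (2 against 5 counts) and ESRP1 (33 against 42 counts), whose counting intervals held 0, and VIM at -0.103. FN1 was 1.76-fold lower, ZEB2 1.77-fold lower and SNAI2 1.98-fold lower, and ZEB2 and SNAI2 lay 49.5% and 87.3% of the way to the HeyA8-MDR vehicle library. ZEB1 and EPCAM lay 14.2% and 14.1% of the way, beside the median of 23.4% for genes at least 8-fold lower in HeyA8-MDR. ZEB1, ZEB2 and SNAI2 differed 5.04-fold, 3.19-fold and 2.19-fold between these partners. The median is thus not of like genes, and a percentage of a smaller difference is less sure. In SKOV3-TR, CDH1 had 361 counts with vehicle and 69 with QC, 2.91-fold lower (log2 interval -1.94 to -1.17), while EPCAM was 1.33-fold higher. In SKOV3, FN1 was 2.24-fold lower and ESRP1 had 69 against 30 counts (log2 difference 1.26). That put FN1 88.5% of the way to the SKOV3-TR vehicle library, beside a median of 2.7% for genes at least 8-fold lower there. FN1 differed only 2.48-fold between these partners, so here too the median is not of like genes. In C13, SNAI2 was 1.75-fold higher and CDH1 1.27-fold higher. Without replicates of a line these values have no error beyond counting.

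**Figure D5:**
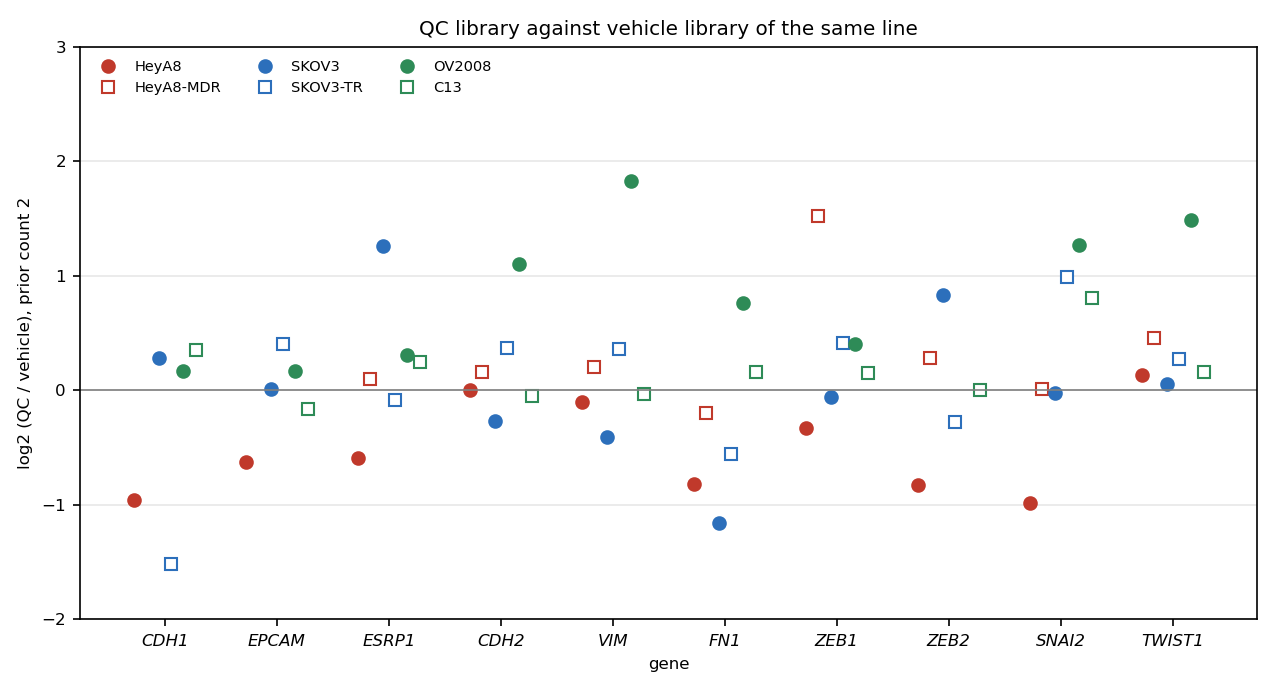
Log2 ratio of the QC to the vehicle library (vertical axis, prior count 2) for each of the 10 genes (horizontal axis) in each line, with sensitive lines filled, resistant lines open and families in colours; each symbol compares 2 libraries, and pairs with at most 3 counts in both are left out. OV2008 is the highest line for VIM, FN1, CDH2, SNAI2 and TWIST1, and HeyA8-MDR for ZEB1 at 1.53.

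Of the other epithelial genes 0 of 34 passed for QC over all lines, 3 were higher and 3 lower at an unadjusted p under 0.05 (of all genes 7.99% and 7.18%), and the median log2 change was 0.10 against 0.00 over all genes. CLDN4, a tight junction claudin (log2 0.53, SE 0.15, adjusted p = 0.175), and LSR, a tricellular junction protein (log2 0.42, SE 0.14, adjusted p = 0.209, edgeR), had the smallest p and were higher with QC in 6 of 6 lines. So were 4.13% of all genes, and genes picked by p tend to share a direction. LSR was nearly unchanged in HeyA8-MDR (5.343 CPM with vehicle and 5.385 CPM with QC). Of the mesenchymal genes 0 of 30 passed, 3 were higher and 1 lower at the unadjusted threshold, and the median was 0.13. QKI, an RNA-binding splicing regulator (log2 0.51, SE 0.13, adjusted p = 0.157), was higher in 6 of 6 lines, with 79.1 against 151 CPM in OV2008. ACTA2, smooth muscle actin (log2 1.51, SE 0.39, adjusted p = 0.157, edgeR), had 46.0 CPM with vehicle and 132 CPM with QC in HeyA8, 0.672 and 7.84 CPM in OV2008 and 2.13 and 20.1 CPM in C13, but 1.649 and 1.639 CPM in SKOV3-TR.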

How the data were processed

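RNA-seq was made from 6 human ovarian cancer cell lines with QC (8 µM, 6 h) or vehicle, 1 library for each line and treatment. The deposited values are raw read counts per gene, which the authors did not normalize. The submitters' processing notes name STAR 2.7.3a, HTSeq 0.6.1p1 and GRCh38.p13, while the study's methods name TopHat, hg19 and HTSeq. The annotation and strand setting are not given in the sources used here, so reads of a gene and its antisense partner cannot be told apart. Of the 60669 IDs 58620 were paired with a symbol, and the unpaired IDs held 0.132% of the counts.

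Counts were tested in R 4.3.3 with edgeR 4.0.16 (filterByExpr, TMM, glmQLFit and glmQLFTest, two-sided, Benjamini-Hochberg over all genes tested, threshold 0.05). The 6 vehicle libraries were fitted with family and resistance (18297 genes, 2 residual degrees of freedom). All 12 were fitted with a term for each cell line and 1 QC effect (18720 genes, 5 degrees of freedom), or with a QC effect for each of the sensitive and resistant lines (4 degrees of freedom). The pairing comes from the shared line: across genes, the deviations of a line's vehicle and QC libraries from their group means had r between 0.893 and 0.929, and those of partner lines in vehicle between 0.695 and 0.763. Levels are CPM (library total 1000000 after TMM), log2 CPM used a prior count of 2, and intervals (exact binomial, 95%) and floors (3 counts) cover counting error only. Both take each count as separate, so they are too narrow where a fragment gave more than 1 count. Named genes are the 10 members, the 4, 2 and 2 genes of each list with the smallest p for family, resistance and QC, and the 5 most like CDH1 and ZEB1. The members, lists and tests were chosen with earlier results of these data known. The fits were tested on simulated data. DESeq2 1.42.0, other scalings and filters, and leaving out each line were tried as alternatives. Plots were drawn with matplotlib 3.10.9.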

Additional observations from a re-analysis of the deposited data

Results flagged for a closer look

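Outliers by Dixon's test were looked for in 40 sets, the 4 libraries of each family and the 6 QC changes of each of the 10 genes, and 4 were found. Chance flags about 1 set in 20 (a probability of 0.05). OV2008 stood apart among the 6 lines in its QC changes of VIM, 1.83 on the log2 scale (4 counts with vehicle and 23 with QC), and of TWIST1, 1.49 (38 and 139 counts). The SKOV3-TR vehicle library stood apart in its family for ZEB1 at 48.8 CPM, below the other 3 libraries, which lay between 65.0 and 68.3 CPM. The HeyA8 vehicle library stood apart in its family for SNAI2 at 108 CPM, above the other 3, which lay between 49.4 and 54.6 CPM.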

How the results depend on the processing

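The number of genes called for family was 2784, and it was 6701 without the filter, 6580 with DESeq2, 4440 with vehicle and QC counts summed per line, 4483 without the resistance term and 6952 at an unadjusted p under 0.05. Leaving out 1 line gave 251 (without C13) to 3500 genes and 4 to 8 members, and requiring at least 10 counts in every library left 4 members, of which 3 passed. The 0 genes for resistance became 146 without the filter (1 member), 48 with DESeq2 and 685 at the unadjusted p (1 member). The 0 genes for QC over all lines became 791 without the filter, 522 with DESeq2, 8 with counts halved (chosen after seeing the data, since a fragment can give 2 counts) and 2840 at the unadjusted p. In sensitive lines they became 195, 32, 3 and 1234, and 0 to 8 genes without 1 line. In resistant lines 35 genes passed without the filter and 1128 at the unadjusted p (1 member), and for the difference 5, 1 with DESeq2 and 217 (1 member).

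Without the replicate block for line or family 0 genes and 0 members passed, and it changed no call. The signs of 6 differences that had not passed turned without it: 0.23 for CDH1, 0.10 for ESRP1, -0.70 for FN1 and -1.50 for ZEB2 by resistance, and 0.26 for CDH1 and 0.0156 for EPCAM by QC. The QC libraries turned SNAI2 in OV2008 minus HeyA8 (0.69, and 0.0214 with counts summed per line), ESRP1 (0.20) and TWIST1 (-0.0807, and -0.0594 summed) in SKOV3 minus HeyA8, and ZEB1 by resistance (0.15). Leaving out 1 line turned the sign within -0.28 to 0.33 for TWIST1 and -1.57 to 1.14 for ZEB1 in SKOV3 minus HeyA8, -7.20 to 0.29 for ZEB2 in OV2008 minus SKOV3, -0.97 to 1.08 for FN1, -1.37 to 0.39 for ZEB1 and -0.40 to 3.90 for ZEB2 by resistance, -0.35 to 0.20 for CDH1, -0.13 to 0.0735 for EPCAM and -0.34 to 0.16 for ZEB2 by QC, and -0.26 to 0.0074 for ZEB1 by QC in sensitive lines. The cause was not tested. With 1 library per line and treatment, differences within a line have no replicate check, and levels under 3 counts cannot be told from 0.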
